A study of Mus musculus with 6 samples.

Results

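The AMPA and kainate receptor subunits are encoded by 9 genes, Gria1 to Gria4 and Grik1 to Grik5, and all 9 were found by symbol among the 32285 genes counted. Single-nucleus RNA-Seq of the prelimbic cortex (PL), the middle part of the medial prefrontal cortex, was performed on 6 libraries from male C57BL/6 mice, each a pool of nuclei from 3 males. Run offspring were nursed by dams whose cages held a running wheel from soon after birth to weaning, Sed offspring by dams in standard cages, and after weaning the males lived in groups (GH) or alone (SI). Cohort 1 held one RunGH and one SedGH library, and cohort 2 held one library each of RunGH, SedGH, RunSI and SedSI. The labels give the mice as P21, whereas the methods of the study describe adult males at tissue collection. By the same source the cohort 1 males had been through tube tests up to the day before, and the profiled mice of cohort 2 had seen no behavioral test. The cohort 1 Run and Sed males were picked for top and bottom rank in their group. Cohort, rank and test history thus cannot be told apart. If top is read for Run and bottom for Sed, rank and maternal environment cannot be told apart within cohort 1 either.

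AMPA receptors are tetramers of GluA subunits and carry most of the fast excitatory current at cortical synapses. The GluA2 subunit, encoded by Gria2, is edited at the RNA level and keeps calcium out of the channel, so that the share of Gria2 among the AMPA subunits is followed as a sign of calcium permeability. Kainate receptors are assembled from GluK1 to GluK3, which form channels on their own, with GluK4 and GluK5, which bind the ligand with high affinity and need a partner from the first set. Kainate receptors are known for acting on both sides of the synapse and for adjusting inhibition by interneurons.

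In the mm10 annotation, Gria1 spans chr11:57011387-57330244 on the plus strand, Gria2 chr3:80681450-80802835 on the minus strand, Gria3 chrX:41400854-41678601 on the plus strand and Gria4 chr9:4417896-4796234 on the minus strand. Among the kainate genes, Grik1 spans chr16:87895900-88290265 on the minus strand, Grik2 chr10:49094833-49788766 on the minus strand, Grik3 chr4:125490700-125714173 on the plus strand, Grik4 chr9:42518135-42944493 on the minus strand and Grik5 chr7:25009849-25072346 on the minus strand. Intronic and exonic reads were both counted, and the spans run from 62.5 kb for Grik5 to 694 kb for Grik2. Grik2 overlaps the counted genes Gm26543 and Gm47018 on its own strand, and reads in the overlap could be lost to it.

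RefSeq promoter windows were at hand for 6 of the 9 genes (Gria2, Gria4, Grik2, Grik3, Grik4 and Grik5). The 250 bases before the RefSeq start of Grik3 and Grik5 are shown because the Run to Sed ratios of both genes differed between the cohorts, as described further on. The ratios of Grik4 and Gria4 differed as well, and their windows are not shown. A link between these windows and the ratios was not tested. Capitals mark GC boxes, the letters GGGCGG or, on the other strand, CCGCCC. The Grik3 window is chr4:125490446-125490695 (GRCm38.p6, plus strand) and the Grik5 window is chr7:25072370-25072619 (GRCm38.p6, minus strand), both written 5′ to 3′.
Grik3: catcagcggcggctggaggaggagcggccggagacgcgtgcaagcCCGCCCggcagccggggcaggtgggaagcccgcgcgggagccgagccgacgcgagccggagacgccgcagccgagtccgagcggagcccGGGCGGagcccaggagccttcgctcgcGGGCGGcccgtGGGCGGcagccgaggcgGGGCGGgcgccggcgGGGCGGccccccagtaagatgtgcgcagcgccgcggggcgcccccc
Grik5: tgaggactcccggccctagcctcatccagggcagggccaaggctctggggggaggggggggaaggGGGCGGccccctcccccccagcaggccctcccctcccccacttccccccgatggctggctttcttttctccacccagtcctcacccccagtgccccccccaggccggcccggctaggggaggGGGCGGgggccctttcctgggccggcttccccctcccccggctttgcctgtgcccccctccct
The Grik3 window held 6 GC boxes and the Grik5 window 2, and that of Grik4 held 1, whereas none was found in those of Gria2, Gria4 and Grik2. Of all 32851 RefSeq windows of this length, 32.7% held at least 1 GC box. The letters TATAAA, searched on both strands, were in none of the 6 windows and in 12.4% of all windows. The GC content was 82.0% for Grik3, 75.2% for Grik5, 69.6% for Grik4, 64.8% for Gria2, 62.8% for Grik2 and 58.8% for Gria4. Which factors bind these windows was not measured.

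The libraries held 19134955 to 188952936 UMIs over all barcodes, and 42595 nuclei were kept, 4997 to 9936 per library, with a median of 1637 to 6250 UMIs. Both cohort 1 libraries were deeper and had more free RNA, at an estimated 17.2% and 17.5% of a nucleus against 4.25% to 7.65% in cohort 2. The estimate sets the median UMIs of barcodes with few UMIs against that of nuclei. These barcodes had a median of 960 and 1093 UMIs in cohort 1 and 81 to 300 in cohort 2. Their upper limit followed each library's own UMI minimum for nuclei, so they are unlike between cohorts. Damaged nuclei among them were not looked for. Any pair of libraries shared 5 to 22 nuclear barcodes. The nuclei were clustered without the 9 genes and named from marker genes, and each name, such as PV or Layer 2/3, stands for PV-like or Layer 2/3-like nuclei. There were 16 classes, namely all pyramidal nuclei (33686) and 7 layer classes within them, 4 interneuron classes (PV, 1467 nuclei; SST, 1307; VIP, 738; NPY/Lamp5, 490) and astrocytes, oligodendrocyte precursors, oligodendrocytes and microglia (404 to 1520). In cohort 1 a cluster of 1279 pyramidal nuclei fell between Layer 2/3 and Mid-layer and was left without a layer, so that these layer classes hold different clusters in the cohorts. Values below are CPM, the UMIs of a gene summed per library and class and scaled to the total of that sum, given as mean ± SD over 6 libraries, and the order of classes leaves out the pyramidal nuclei as a whole. Each library pools animals, so that the SD and p-values cover the spread between pools. The SD also takes in differences between the cohorts and between the groups.

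Each of the 9 genes had its own order of classes, and 4 of them were highest in interneurons. Gria1 was highest in SST interneurons (2960 ± 309 CPM, highest in 6 of 6 libraries) and lowest in astrocytes (390 ± 158). Gria2 varied least, from 1650 ± 212 CPM in astrocytes to 920 ± 164 in oligodendrocytes, which is 1.79-fold. Gria3 peaked in the Chst8/Npsr1 layer 5 nuclei (1540 ± 162 CPM, 6 of 6 libraries), whereas VIP interneurons held 231 ± 132. PV interneurons held the most Gria4 (1910 ± 41.5 CPM, highest in 5 of 6 libraries).

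**Figure D1:**
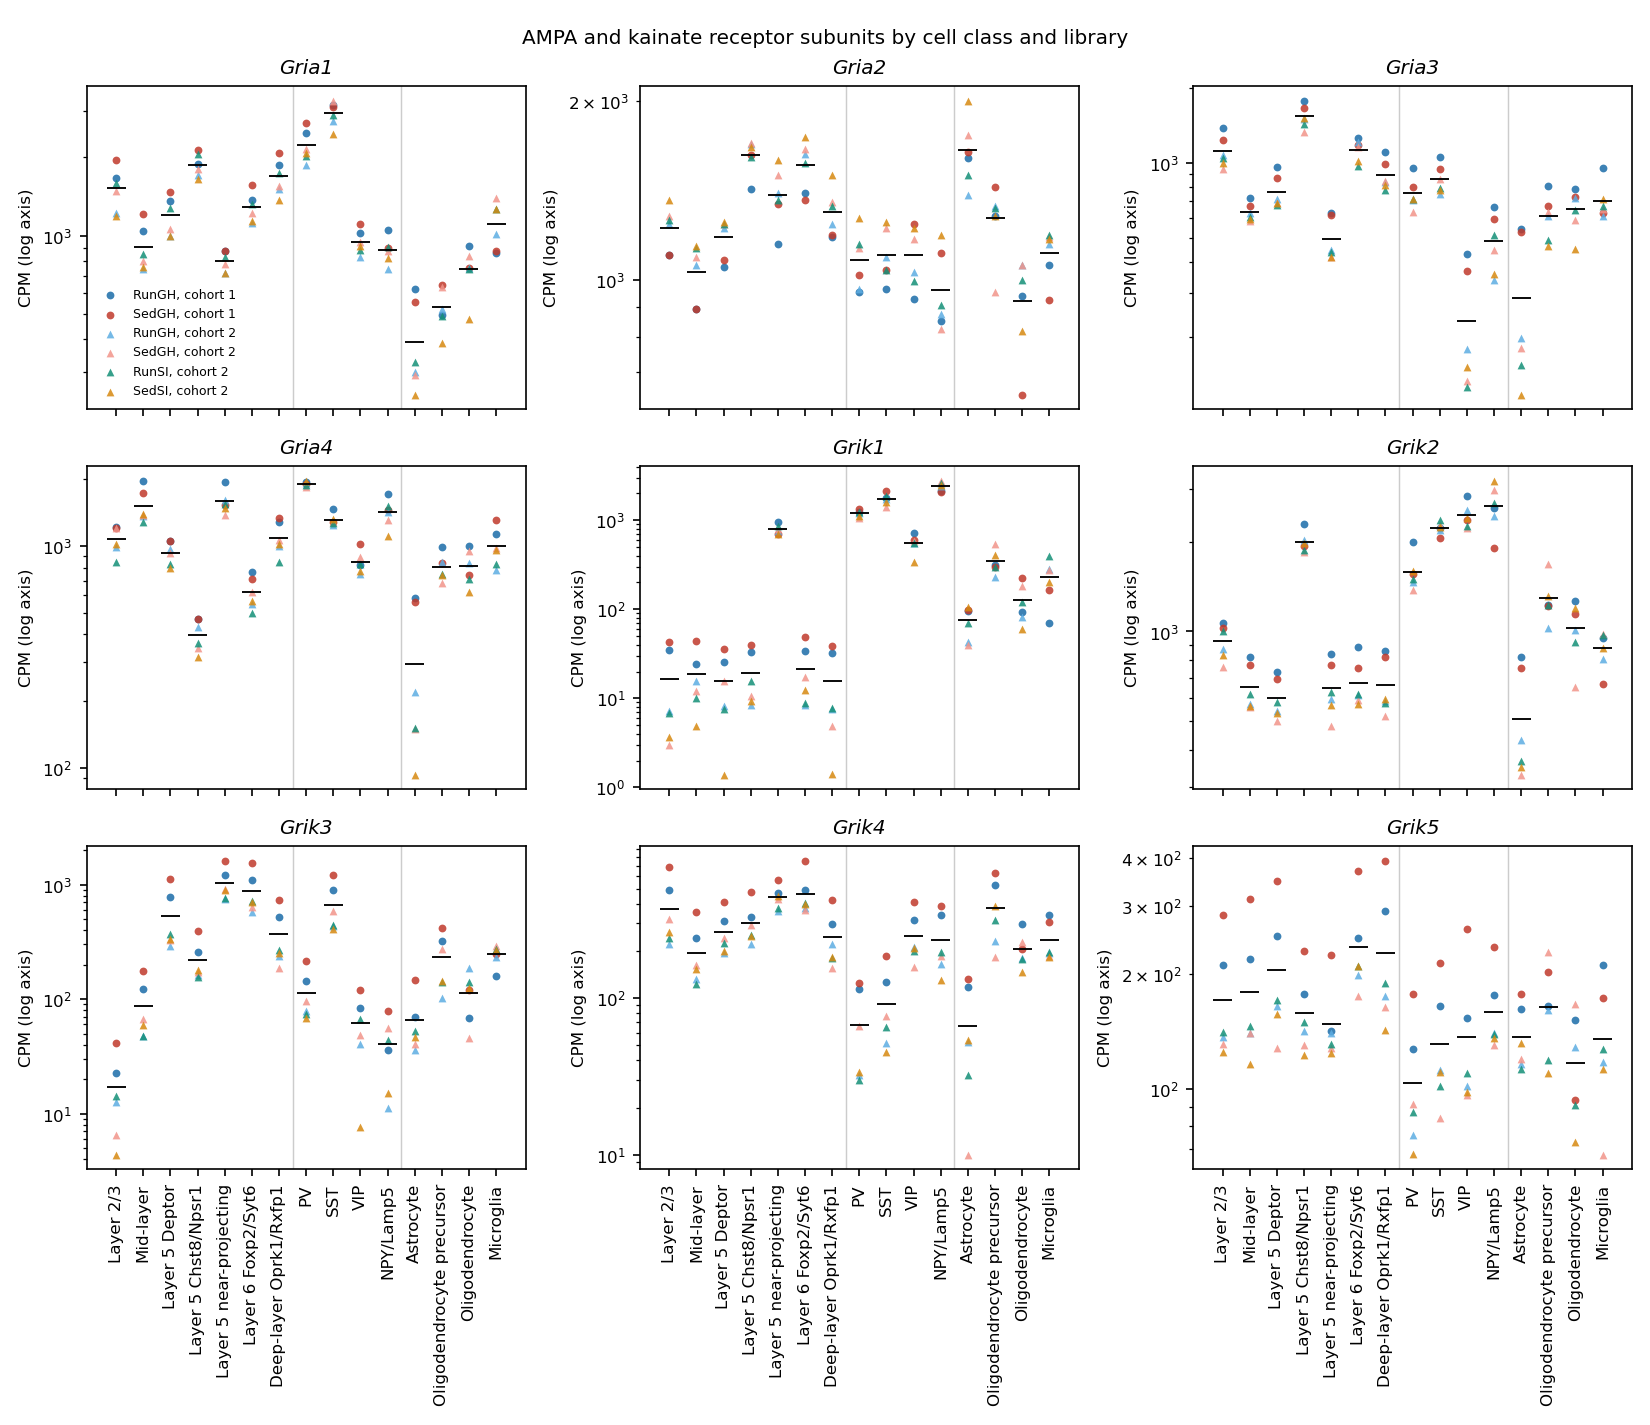
CPM on a log axis of the 9 genes in 15 classes, with 1 panel per gene, 1 point per library (circles for cohort 1, triangles for cohort 2) and a black line at the mean of the 6 libraries. Grik1 and Grik3 span more than the other genes, from 15.5 to 2410 CPM and from 16.9 to 1030 CPM between class means, and in the Grik5 panel the SedGH library of cohort 1 is the highest point in 12 of 15 classes.

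Of the kainate genes, Grik1 was highest in NPY/Lamp5 interneurons (2410 ± 273 CPM) and had class means of 15.5 to 21.6 CPM in 6 layer classes, below the 45.0 to 223 CPM of background droplets (barcodes with few UMIs, taken as free RNA). Grik2 was also highest in NPY/Lamp5 interneurons (2630 ± 452 CPM, highest in 3 of 6 libraries), next to VIP interneurons at 2450 ± 232. Grik3 was led by the near-projecting layer 5 nuclei (1030 ± 333 CPM) and lowest in Layer 2/3 (16.9 ± 13.6), below background droplets at 65.6 to 202 CPM. The high-affinity subunit genes were both highest in Layer 6, Grik4 at 463 ± 147 CPM and Grik5 at 235 ± 70.7, but each in only 3 of 6 libraries. Grik5 ran 2.25-fold from its highest to its lowest class and Grik4 6.98-fold.

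Classes next to each other in these orders mostly had overlapping levels. In 12 to 14 of the 14 neighbouring pairs of each gene the ranges of the 6 libraries overlapped. Since classes share libraries, an overlap of ranges does not show that a pair was alike. Of the 126 neighbouring pairs, 29 were ordered the same way in all 6 libraries, from 0 for Grik5 to 7 for Gria1. The order was set by the means of these same 6 libraries, so this count only describes them. The shares of overlapping pairs and of pairs ordered alike were not computed over all genes. The pairs without overlap were Gria3 between the Chst8/Npsr1 nuclei and Layer 6, Gria4 between Layer 6 and the Chst8/Npsr1 nuclei, and Grik1 between SST and PV interneurons and between PV interneurons and the near-projecting nuclei.

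Genes were compared with each other as CPM per kb of gene span, since introns were counted, although the share of intronic reads was not measured here. The order depends on this scale, as by CPM alone Gria1 (1340) and Gria2 (1300) were close in pyramidal neurons and Gria1 (2220) and Gria4 (1910) were above Gria2 (1080) in PV interneurons. In pyramidal neurons, Gria2 had the highest level per kb (10.7 ± 0.873), followed by Gria1 (4.20 ± 0.642), Gria3 (3.56 ± 0.438), Grik5 (3.02 ± 1.09) and Gria4 (2.69 ± 0.451). Grik3 (1.44 ± 0.749), Grik2 (1.28 ± 0.139), Grik4 (0.736 ± 0.279) and Grik1 (0.114 ± 0.0287) were lower per kb. Gria2 also ranked first per kb in PV interneurons (8.93), NPY/Lamp5 interneurons (7.93) and astrocytes (13.6). By CPM, background droplets held 1170 to 1560 of Gria2, against 953 to 1270 in PV and 827 to 1190 in NPY/Lamp5 interneurons. In SST interneurons, Gria1 at 9.27 ± 0.968 CPM per kb and Gria2 at 9.09 ± 0.923 differed by less than their SD.

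**Figure D2:**
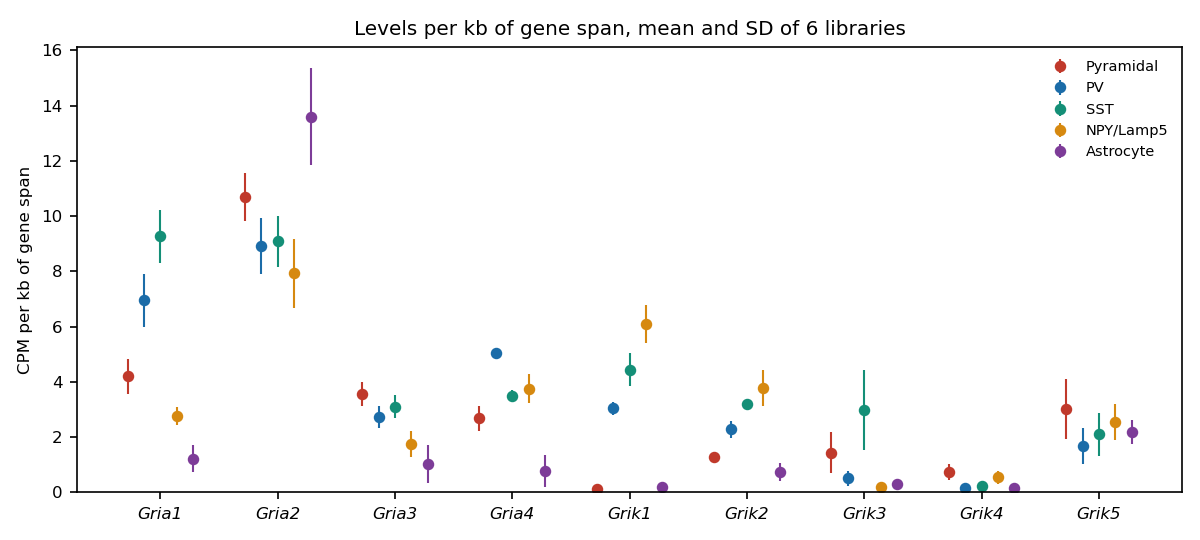
CPM per kb of gene span, mean (points) and SD (bars) of 6 libraries, for the 9 genes in 5 classes marked by color. Gria2 is the highest gene in 4 of the 5 classes, and in SST interneurons Gria1 (9.27) and Gria2 (9.09) lie within each other's SD.

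PV interneurons are fast-spiking inhibitory neurons that are driven through AMPA receptors, and they were compared with pyramidal neurons within the same 6 libraries. All 9 genes passed edgeR's quasi-likelihood test at an adjusted p below 0.05, 4 higher and 5 lower in PV interneurons, against 45.9% of the 15441 genes tested (22.8% higher, 23.1% lower). The median log2 fold change was -0.41 for the 9 genes and 0.04 for all genes. With 45.9% of all genes called, the count of 9 is read beside the sizes.

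Grik1 was the gene with the largest difference. Its level was 1230, 1340, 1190, 1060, 1250 and 1110 CPM in PV interneurons of RunGH 1, SedGH 1, RunGH 2, SedGH 2, RunSI 2 and SedSI 2, where the number is the cohort, against 55.5, 58.2, 36.7, 36.0, 50.8 and 32.0 CPM in pyramidal neurons. The ranges did not overlap, and the log2 fold change was 4.62 with an SE of 0.0894 (edgeR adjusted p = 6.47e-28). The near-projecting nuclei held 72.5% to 84.1% of the pyramidal Grik1 UMIs in cohort 2 and 27.4% to 37.0% in cohort 1. There Grik1 was at 694 to 960 CPM, whereas the other 6 layer classes had 1.39 to 49.2 CPM, no higher than the 45.0 to 223 CPM of the background droplets.

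Gria4, whose product has fast kinetics, was higher in PV interneurons by a log2 fold change of 0.78 ± 0.0765 (SE; edgeR adjusted p = 2.94e-10). It stood at 1940, 1910, 1920, 1850, 1880 and 1960 CPM there, in the library order above, and at 1300, 1130, 935, 991, 821 and 930 CPM in pyramidal neurons, with no overlap. Gria1 (0.58) and Grik2 (0.69) were higher as well. Gria2, the calcium-limiting subunit gene, was lower in PV interneurons in 6 of 6 libraries by a log2 value of 0.41 with an SE of 0.0647 (edgeR adjusted p = 3.06e-06), although the ranges overlapped. Background droplets held 1170 to 1560 CPM of Gria2, and with their profile subtracted the log2 fold change was -0.53 (edgeR adjusted p = 8.01e-09). Gria3 fell by 0.54 on the same scale. The 3 remaining kainate genes were lower in PV interneurons, with log2 fold changes of -2.43 for Grik4, -1.66 for Grik3 and -1.02 for Grik5. All 9 calls held in each of 14 alternative settings.

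The list of 32 other genes of the pathway was compared in the same way, and 9 were higher and 15 lower in PV interneurons. Grip1 and Grip2, scaffolds that bind the tails of AMPA subunits, were higher by log2 values of 2.80 and 2.05. Neto2, an auxiliary subunit of kainate receptors, was higher by 1.11, from 67.1 ± 2.43 CPM in pyramidal neurons to 161 ± 19.6. Among the lower genes were Nptx2 (-2.44), a secreted pentraxin that clusters AMPA receptors, and the TARP gene Cacng3 (-2.34). Nptx2 was at only 3.0 ± 2.35 CPM in PV interneurons and 12.1 ± 2.95 in pyramidal neurons. TARPs are auxiliary subunits that carry AMPA receptors to synapses. All 3 pentraxin genes and 7 of 10 other AMPA receptor auxiliary genes were lower.

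SST interneurons, which inhibit dendrites, were compared with PV interneurons to see how the genes vary among inhibitory neurons. Of the 9 genes, 7 were higher and 1 lower in SST interneurons by the same edgeR test, against 26.1% of 10889 genes (12.6% higher, 13.5% lower). The medians of the log2 fold changes were 0.43 for the 9 genes and -0.01 for all genes. Grik3 differed most, at 900, 1220, 439, 588, 442 and 407 CPM in SST interneurons and 144, 217, 78.6, 95.4, 74.2 and 67.8 CPM in PV interneurons, in the library order above. SST interneurons were higher in every library pair, with a log2 fold change of 2.57 ± 0.0775 (SE; edgeR adjusted p = 3.89e-30). Grik1 (0.57), Grik2 (0.51), Grik4 (0.48), Gria1 (0.43), Grik5 (0.36) and Gria3 (0.20) were higher by less. Levels of Grik3 in PV interneurons (67.8 to 217 CPM) were within the range of background droplets (65.6 to 202 CPM) in 5 of 6 libraries. Grik4, at 45.5 to 186 CPM in SST and 29.8 to 125 in PV interneurons, and Grik5, at 84.1 to 213 and 67.8 to 177, were also near or below their droplets (63.2 to 245 and 113 to 151 CPM). With the background profile subtracted the log2 fold changes were 2.72 for Grik3, 0.64 for Grik4 and 0.41 for Grik5 (edgeR adjusted p = 2.09e-25, 0.000466 and 0.00166). The part of free RNA in these differences was not tested further.

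Gria4 was the gene lower in SST interneurons, at 1310 ± 80.2 CPM against 1910 ± 41.5 in PV interneurons, a fall of 0.52 on the log2 scale with no overlap of libraries. Gria2 was at 1100 ± 112 and 1080 ± 123 CPM, and its log2 difference of 0.04 did not pass the test (edgeR adjusted p = 0.7). The call of Gria3 was lost without the SedGH library of cohort 2 (0.15, edgeR adjusted p = 0.0704) and that of Grik4 after thinning to 1000 UMIs (0.40, adjusted p = 0.174).

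The other pathway genes were compared between the same interneurons. Of 31 pathway genes tested, 11 were higher and 4 lower in SST interneurons. Shisa6, which slows the desensitization of AMPA receptors, stood at 519 ± 76.9 CPM in SST and 9.58 ± 4.56 in PV interneurons, a log2 fold change of 5.61. Cacng5 (3.99) and Cacng3 (1.98) were higher too, Cacng5 at only 12.2 ± 5.68 CPM. Shisa9 (-2.29), Gsg1l (-1.41) and Cacng2 (-0.54), all encoding AMPA auxiliary subunits, were lower in SST interneurons. Both kainate auxiliary genes were higher there.

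Within pyramidal neurons, Layer 6 nuclei marked by Foxp2 and Syt6 were compared with Layer 2/3 nuclei. Of the 9 genes, 4 were higher and 3 lower in Layer 6, against 42.5% of 14435 genes tested (19.1% higher, 23.4% lower). The median log2 fold change was 0.27 for the 9 genes and -0.03 for all genes. Grik3 led by a wide margin, at 1090, 1540, 580, 633, 719 and 698 CPM in Layer 6 and 22.4, 41.5, 12.5, 6.44, 14.1 and 4.36 CPM in Layer 2/3. Its log2 fold change was 5.71 with an SE of 0.163 (edgeR adjusted p = 2.34e-15). The Layer 2/3 values were below those of background droplets, where Grik3 had 65.6 to 202 CPM, so no expression can be read from them.

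The other higher genes in Layer 6 were Grik5 (log2 fold change 0.46), Grik4 (0.39) and Gria2 (0.33). Gria2 was higher in 6 of 6 libraries, at 1560 ± 150 against 1220 ± 104 CPM. Gria4 (-0.82), Grik2 (-0.49) and Gria1 (-0.24) were lower in Layer 6, Gria4 with no overlap at 619 ± 101 against 1080 ± 155 CPM. Gria3 (0.02) and Grik1 (0.27, at levels within the background) did not pass the test. The alternatives ended none of the 7 calls, and Grik1 passed without the RunGH library of cohort 1 (0.53, edgeR adjusted p = 0.0228) and with DESeq2 (0.62, adjusted p = 0.0385).

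When nuclei were thinned to 1000 UMIs each, the share with a Grik3 UMI was 41.1% to 76.3% in Layer 6, 48.3% to 79.5% in the near-projecting nuclei and 0.603% to 4.32% in Layer 2/3. Unthinned, the shares were 60.6% to 99.9%, 65.5% to 99.2% and 0.961% to 23.7%. For Grik1 the thinned shares were 63.6% to 76.1% in NPY/Lamp5 interneurons and 0.0894% to 4.53% in Layer 2/3, against 71.6% to 100% and 0.517% to 25.1% unthinned. Median depths were 1546 to 6337 UMIs in Layer 6, 1141 to 5022 in NPY/Lamp5 interneurons and 1536 to 6664 in Layer 2/3, so the shares of Layer 2/3 serve as a background for both genes.

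Of the 32 pathway genes, 13 were higher and 9 lower in Layer 6. Cacng5 (2.29, at 2.87 ± 1.43 CPM), Shisa6 (1.73) and Grip2 (1.32) had the largest positive log2 fold changes. Syndig1 (-2.15), Nptxr (-2.0) and Cacng3 (-1.88) had the largest negative ones, and Cacng3 stood at 120 ± 24.4 CPM in Layer 6 and 432 ± 83.7 in Layer 2/3. Syndig1 acts in the assembly of AMPA synapses, and Nptxr is a membrane-bound pentraxin.

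**Figure D3:**
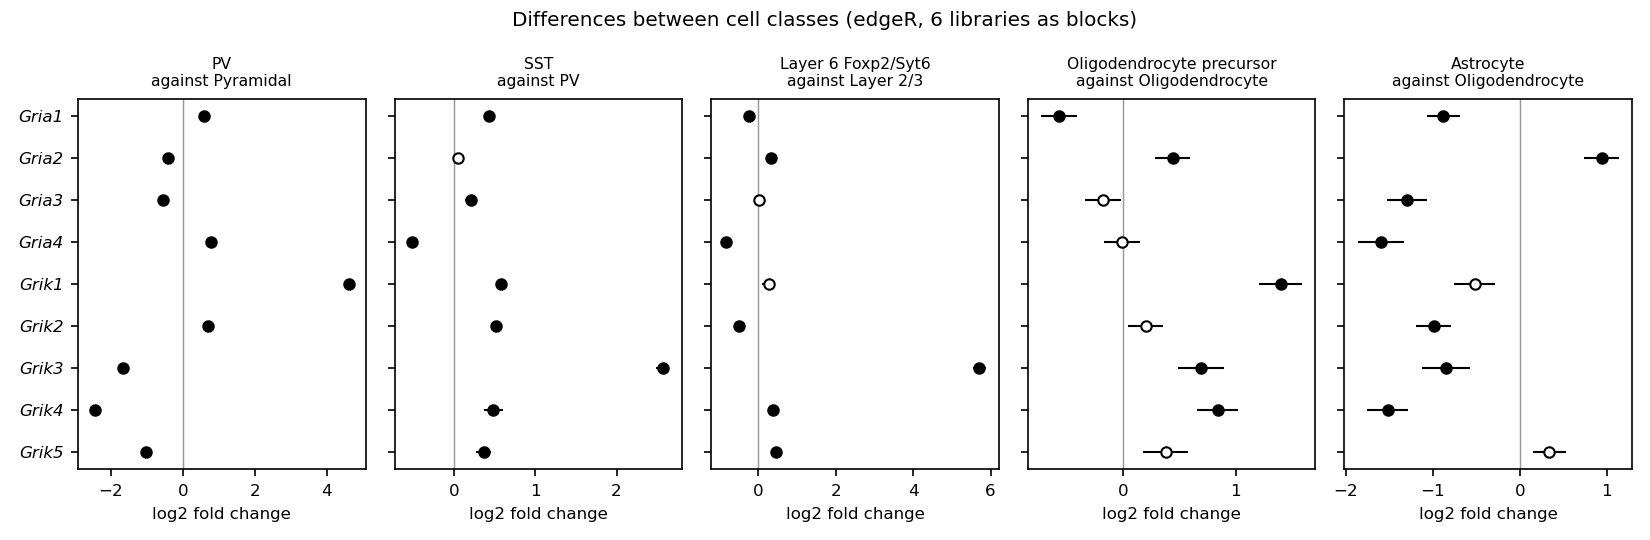
Log2 fold change of the 9 genes (points) with its SE (bars) in 5 comparisons of classes, filled where the edgeR adjusted p was below 0.05. Grik1 stands out in PV interneurons against pyramidal neurons (4.62), Grik3 in Layer 6 against Layer 2/3 (5.71) and in SST against PV interneurons (2.57), and Gria2 is the highest gene in astrocytes against oligodendrocytes (0.94).

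Glial cells also carry glutamate receptors, and oligodendrocyte precursors receive synaptic input through AMPA receptors. Pyramidal markers were counted in the glial classes as well, and their sum was at 461 to 1890 CPM in astrocytes, 1250 to 2090 in oligodendrocyte precursors, 1450 to 2830 in oligodendrocytes and 2470 to 3180 in microglia, against 3890 to 4460 CPM in pyramidal neurons and 361 to 1130 in PV interneurons. Their part in the glial levels of the 9 genes was not tested.

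Oligodendrocyte precursors differed from oligodendrocytes in 5 of the 9 genes, 4 higher and 1 lower, against 23.0% of 6732 genes tested (11.5% higher, 11.5% lower). The precursor cluster also had 6 oligodendrocyte markers raised in cohort 2 and 4 in cohort 1, so it is not clear of oligodendrocyte-like nuclei. In both cohorts Bcas1 was among its leading genes beside Pdgfra. With log-normalized clustering this still held in cohort 1, whereas in cohort 2 Bcas1 was among the leading genes of oligodendrocytes. The part of this mixture in the differences was not tested. The median log2 fold change was 0.38 for the 9 genes and -0.02 for all genes. Grik1 was at 318, 296, 230, 545, 298 and 408 CPM in precursors and 94.1, 222, 81.3, 182, 122 and 59.6 CPM in oligodendrocytes, with no overlap. Its log2 fold change was 1.40 ± 0.192 (SE; edgeR adjusted p = 6.37e-11). Grik4 (0.84), Grik3 (0.69) and Gria2 (0.44) were higher and Gria1 (-0.57) was lower in precursors. Without the RunGH library of cohort 1 there were 3 calls, with Grik3 at 0.30 (edgeR adjusted p = 0.445) and Gria1 at -0.47 (0.0583), and without the SedGH library of cohort 1 also 3, with Grik3 at 0.44 (0.112) and Gria2 at 0.30 (0.217). Gria2 was also lost without RunGH of cohort 2 (0.48, adjusted p = 0.0597), without RunSI (0.45, adjusted p = 0.0835) and without a count filter (0.43, adjusted p = 0.113). Both Gria2 and Grik3 were lost with DESeq2 (adjusted p = 0.0784 and 0.194) and with doublets removed (edgeR adjusted p = 0.085 and 0.0906). Of 27 pathway genes tested, 6 were higher and 3 lower in precursors, led by Cacng4 (3.63, at 520 ± 190 against 31.5 ± 10.7 CPM), the delta receptor gene Grid1 (1.57) and Shisa6 (1.37), with Cnih3 (-1.04), Dlg1 (-0.78) and Cacng3 (-0.71) at the other end. The Cnih3 call, at 19.5 ± 16.1 CPM in precursors, held in 7 of 11 alternatives, and the other named calls in 11 of 11. Cnih3 encodes a cornichon that accompanies AMPA receptors, and Dlg1 the scaffold SAP97.

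In astrocytes, which take up synaptic glutamate, 1 of the 9 genes was higher and 6 were lower than in oligodendrocytes, against 41.0% of 7423 genes (22.2% higher, 18.9% lower). The medians were -0.88 for the 9 genes and 0.07 for all genes. Gria2 was the higher one, at 1600, 1640, 1390, 1750, 1500 and 2000 CPM in astrocytes and 937, 641, 1060, 1060, 997 and 821 CPM in oligodendrocytes. The ranges did not overlap, and the log2 fold change was 0.94 ± 0.199 (SE; edgeR adjusted p = 0.000644). Background droplets had 1170 to 1560 CPM of Gria2, near the astrocyte levels, and with their profile subtracted the log2 fold change was 1.20 (edgeR adjusted p = 0.000906). The lower genes were Gria4 (-1.60), Grik4 (-1.52), Gria3 (-1.30), Grik2 (-0.99), Gria1 (-0.88) and Grik3 (-0.85). With log-normalized clustering the calls of Gria4 (-0.68), Grik4 (-0.84) and Gria3 (-0.51) held at smaller sizes. The Grik3 call was lost without RunGH of cohort 2 (-0.57, edgeR adjusted p = 0.117) without RunSI (-0.79, adjusted p = 0.0862) and with DESeq2 (-0.84, adjusted p = 0.0706). Grik1 (-0.52) passed without SedSI (-0.81, edgeR adjusted p = 0.00878), with doublets removed (-0.71, adjusted p = 0.0421), after thinning (-0.81, adjusted p = 0.0257) and with log-normalized clustering (-0.81, adjusted p = 0.00159), where Grik5 passed too (0.45, adjusted p = 0.0233). In astrocytes of cohort 1, Gria4 was at 583 and 562 CPM, whereas the 4 libraries of cohort 2 had 93.3 to 220 CPM. Background droplets had 1080 and 1110 CPM of Gria4 in cohort 1 and 224 to 291 in cohort 2, and the part of free RNA in these levels was not tested. The astrocyte class also differed in its making. In cohort 2 a cluster of 256 astrocyte-like nuclei with pyramidal RNA was left out, and cohort 1 had no such cluster. Pyramidal markers in the class were at 1890 and 1600 CPM in RunGH and SedGH of cohort 1 and 461 to 995 CPM in cohort 2. Of 29 pathway genes tested, 4 were higher and 12 lower in astrocytes, with Cacng8 (0.74), Grip1 (0.73) and Grid1 (0.61) above and Adarb2 (-1.69), Shisa6 (-1.34) and Cacng3 (-1.21) below. Of 13 alternatives, 7 called Cacng8, 11 Grip1, 8 Grid1 and 13 both Adarb2 and Cacng3, and 11 of 12 called Shisa6. Adarb2 encodes a brain member of the RNA editing enzyme family.

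The maternal comparison asked whether nursing by a running dam left a mark on these genes. With all 6 libraries, cohort and housing in the model, none of the 144 pairs of a gene and a class passed edgeR's test, against 0.0558% of 163213 gene-class pairs over all genes. Without adjustment 14 of the 144 had p below 0.05, against 6.71% of all gene-class pairs, and DESeq2 called 0, with 8 below 0.05 unadjusted. The median log2 fold change of the 144 pairs was -0.06, and since pyramidal neurons as a whole hold the layer classes, these pairs are not independent. Social isolation gave 0 of 144 as well, against 0.00184%, with 3 below 0.05 unadjusted, against 2.17% of all pairs, and DESeq2 called 0 with 0 below 0.05. These fits have 2 residual degrees of freedom, and a p that misses the threshold does not show that levels were equal.

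The maternal count moved when a library of cohort 1 was left out. Without its RunGH library, 6 of the 144 pairs were called, against 4.09% of 171776 gene-class pairs over all genes in that fit, and the same 6 without its SedGH library, against 4.08% of 179842, since the cohort 2 libraries then give the contrast by themselves. The share of the 9 genes was thus near that of all genes, and these fits have 1 residual degree of freedom. The pairs were Gria4 in pyramidal neurons (log2 Run minus Sed -0.22, edgeR adjusted p = 0.0233 without the RunGH library) and in Layer 2/3 (-0.38, adjusted p = 0.00977), Grik4 in Layer 2/3 (-0.42, adjusted p = 0.0165) and Mid-layer nuclei (-0.40, adjusted p = 0.00403), and Grik3 in Layer 2/3 (1.28, adjusted p = 0.00226) and Mid-layer nuclei (-0.49, adjusted p = 0.00396). The Grik3 value in Layer 2/3 rests on levels of 4.36 to 14.1 CPM, below the background droplets.

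Whether the maternal difference itself differed between cohorts was tested as an interaction. Its cohort 2 side took in the GH and the SI pair, whereas cohort 1 held GH only, so housing was not alike. This interaction test leaves 1 residual degree of freedom. It was called for 12 of 144 pairs, 11 higher and 1 lower in cohort 2, against 3.07% of gene-class pairs. In pyramidal neurons it was called for 4 of the 9 genes, against 10.0% of 18695 genes tested. DESeq2 called 1 of the 12, Grik3 in pyramidal neurons, which was also the only pair called in 8 of 8 alternative settings. The other 11 pairs were called in 1 to 6 of 8.

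Grik3 showed the largest such difference in pyramidal neurons. It was at 324 CPM in RunGH and 653 in SedGH of cohort 1, at 223 and 217 in the GH pair of cohort 2 and at 273 and 240 in the SI pair. SedGH of cohort 1 stood alone above the other 5 libraries. The log2 Run to Sed ratios were -1.01 (95% counting interval -1.04 to -0.98), 0.05 (-0.02 to 0.12) and 0.18 (0.13 to 0.23), and the cohorts differed by a log2 value of 1.00 ± 0.121 (SE; edgeR adjusted p = 9.86e-06). Counting intervals here are exact Poisson ones and cover counting error only.

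The mixture of layers moved with this value. Layer 6, rich in Grik3, made up 24.2% of pyramidal nuclei in SedGH and 10.4% in RunGH of cohort 1, and 12.1% to 18.4% in cohort 2. Within the layers the cohort 1 ratio of Grik3 ran from -0.89 to -0.41, with a median of -0.52, and its interval lay below 0 in 7 of 7 layers. By layer, the interaction was called for Grik3 in the Oprk1/Rxfp1 deep-layer nuclei (0.59) and in Layer 2/3 (2.14, at background levels). It was not called in the other 5 layers, where it was smaller than in pyramidal neurons as a whole, at 0.36 in Layer 6 (edgeR adjusted p = 0.19) and in Layer 5 Deptor nuclei (0.172), 0.29 in the Chst8/Npsr1 nuclei (0.493), 0.03 in the near-projecting nuclei (0.97) and 0.01 in Mid-layer nuclei (0.994). In the GH pair of cohort 2 the Grik3 ratio was also below 0 in 5 of 7 layers, with a median of -0.13 and 4 intervals below 0. Background droplets had 125 CPM of Grik3 in RunGH and 202 in SedGH of cohort 1, a log2 ratio of -0.69, against 0.53 and 0.49 in the pairs of cohort 2. With the background profile subtracted the interaction gave 11 calls, and the part of the layer mixture was not tested.

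Grik4 and Grik5, the high-affinity partners, showed the same side of the difference. In pyramidal neurons Grik5 stood at 219 and 315 CPM in RunGH and SedGH of cohort 1, 156 and 140 in the GH pair and 162 and 141 in the SI pair of cohort 2, and its cohorts differed by 0.58 (edgeR adjusted p = 0.00344). For Grik4 the values were 351 and 540, 232 and 264, and 247 and 247 CPM, and the difference was 0.40 (edgeR adjusted p = 0.0427). In cohort 1 the Run to Sed interval of both genes was below 0 in 7 of 7 layers, with medians of -0.51 for Grik4 and -0.47 for Grik5. In the GH pair of cohort 2 Grik4 was lower in 5 of 7 layers too, with a median of -0.29 and 4 intervals below 0, and Grik5 had a median of 0.13. Background droplets had Grik4 ratios of -0.61, 0.40 and 0.62 in the 3 pairs, beside -0.62, -0.19 and 0.00 in pyramidal neurons, and Grik5 ratios of -0.13, 0.31 and 0.18. The part of free RNA was not tested beyond the alternative that subtracts the background profile. The interaction was called for Grik5 in Mid-layer (0.58), Layer 5 Deptor (0.55) and Layer 6 nuclei (0.55), and for Grik4 in Layer 6 (0.55) and the Oprk1/Rxfp1 deep-layer nuclei (0.61). Of 8 alternatives, 6 called Grik5 in pyramidal neurons and in Mid-layer nuclei, where its lowest value was 0.12, 5 in Layer 6 and 1 in Layer 5 Deptor nuclei. Grik4 was called by 4 in pyramidal neurons, by 5 in Layer 6 and by 3 in the deep-layer nuclei. Over all genes with enough counts, the cohort 1 ratio in pyramidal neurons had a median of -0.07 and 95% of genes between -0.58 and 0.54, so Grik3 and Grik4 lay outside that range and Grik5 inside it.

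The SedGH library of cohort 1 had the highest level in 13 of 15 classes for Grik3 and Grik4 and in 12 of 15 for Grik5. It was also highest in 10 classes for Gria1 and 9 for Grik1, whereas RunGH of cohort 1 was highest in 15 for Gria3. Both cohort 1 libraries were above all 4 of cohort 2 in 12 classes for Grik3, 14 for Grik4 and 13 for Grik5. This also held in 13 classes for Gria3, 9 for Gria1, 7 each for Gria4, Grik1 and Grik2, and 0 for Gria2. It is thus not particular to Grik3, Grik4 and Grik5, and the share over all genes was not computed. In PV interneurons the cohort 1 log2 ratio was -0.59 (-0.86 to -0.32) for Grik3 and -0.48 (-0.77 to -0.18) for Grik5, whereas that of Grik4 was -0.13 (-0.47 to 0.21), and in SST interneurons -0.43 (-0.55 to -0.32) for Grik3, -0.54 (-0.85 to -0.23) for Grik4 and -0.37 (-0.65 to -0.08) for Grik5. The PV levels of these genes in cohort 1 (114 to 217 CPM) were near those of background droplets (125 to 245 CPM). In SST interneurons Grik4, at 127 and 186 CPM in RunGH and SedGH of cohort 1, was below its droplets at 161 and 245 CPM. The droplet ratio of Grik4 in that pair was -0.61, and the part of free RNA was not tested. No interaction was called in an interneuron class for any of the 9 genes. Over all genes it was called higher for 22 and lower for 94 of 10942 in PV interneurons. In SST interneurons these were 15 and 75 of 10860, in VIP 4 and 18 of 8476, and in NPY/Lamp5 1 and 4 of 6893. With so few calls over all genes, the lack of a call does not show that the cohorts were alike.

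**Figure D4:**
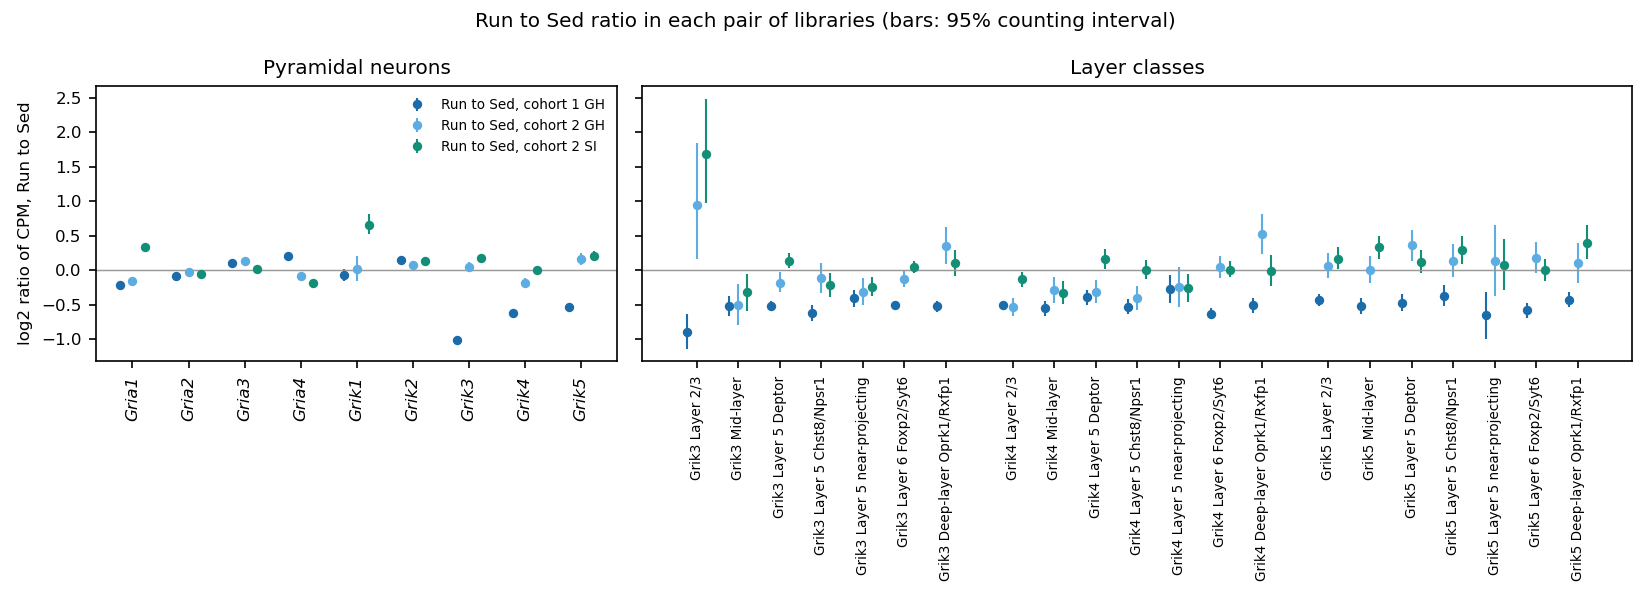
Log2 ratio of CPM, Run to Sed, in the 3 pairs of libraries (colors), with 95% counting intervals, for the 9 genes in pyramidal neurons (left) and for Grik3, Grik4 and Grik5 in 7 layer classes (right). In cohort 1 all 21 layer values lie below 0, whereas in the pairs of cohort 2 the values lie on both sides of 0.

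Gria4 was the gene with the opposite sign. Its Run to Sed ratios in pyramidal neurons were 0.20 (0.18 to 0.22) in cohort 1 and -0.08 (-0.12 to -0.05) and -0.18 (-0.21 to -0.15) in cohort 2, and the cohorts differed by -0.46 (edgeR adjusted p = 0.00725). Within the layers the median cohort 1 ratio of Gria4 was 0.00, from -0.06 to 0.35. The interaction was called for Gria4 in no layer class, where it ran from -0.41 in Layer 2/3 to 0.09 in the Chst8/Npsr1 nuclei. The part of the layer mixture in the Gria4 value was not tested. Grik1 was called in Mid-layer nuclei (1.43, edgeR adjusted p = 0.00174) at 4.88 to 44.3 CPM, no higher than background droplets. Gria1, Gria2, Gria3 and Grik2 were called in no class. The pyramidal Run to Sed ratios of Gria2, Gria3 and Grik2 lay between -0.08 and 0.15.

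Gria1 had Run to Sed ratios of opposite sign in the GH and SI pairs. In pyramidal neurons it was at 1430 CPM in RunGH and 1660 in SedGH of cohort 1, 1140 and 1270 in the GH pair of cohort 2, and 1420 and 1120 in the SI pair. Run was below Sed in both GH pairs (-0.22, -0.23 to -0.20, and -0.16, -0.19 to -0.13) and above it in the SI pair (0.34, 0.32 to 0.36). All 3 ratios lay inside the range of 95% of genes in their pair, which was -0.58 to 0.54, -0.95 to 0.72 and -0.61 to 0.54. The sign held by layer, where Run was lower in 7 of 7 layers in both GH pairs and higher in 7 of 7 in the SI pair. A test of the interaction of maternal environment and housing, chosen after these ratios were seen, called 0 of 144 pairs, against 0.00% of gene-class pairs, with 11 below 0.05 unadjusted, against 1.71% of all pairs, and DESeq2 called 0 with 2 below 0.05. In background droplets the Gria1 ratios were -0.39, 0.20 and 0.66 in the 3 pairs.

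Other genes of the pathway were called in the interaction with cohort in 21 of 478 gene-class pairs (4.39%), 5 higher and 16 lower in cohort 2, near the 3.07% over all genes, and DESeq2 called 1. Cacng3 was lower in 5 classes, from -0.72 in pyramidal neurons to -0.56 in Mid-layer nuclei. Neto1, a kainate auxiliary subunit, was lower in 6 classes, by -0.41 in pyramidal neurons and by -0.80 in the Chst8/Npsr1 layer 5 nuclei. Of 8 alternatives, 4 called Neto1 in pyramidal neurons and 2 to 6 in its layer classes. Cacng3 was called by 8 in pyramidal neurons and by 3 to 5 in its layer classes. In pyramidal neurons Nptx1 (0.73) and Shisa7 (0.59) were higher and Syndig1 (-0.58) was lower. Other calls were Adarb2 in 4 layer classes (-1.37 to 1.80), Shisa7 in Mid-layer nuclei (0.86) and Shisa6 in the Chst8/Npsr1 nuclei (-1.51). Of 8 alternatives, 1 to 7 called Adarb2, from Layer 5 Deptor to near-projecting nuclei, 5 Nptx1, 7 Syndig1 and 6 each Shisa call. For maternal running 0 of 470 pairs of a pathway gene and a class were called, with 48 below 0.05 unadjusted, and DESeq2 called 0.

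Social isolation was called in 2 of 470 pairs of a pathway gene and a class (0.426%), against 0.00184% over all genes. Both were Adarb2, which was lower in SST interneurons (log2 fold change -3.34, edgeR adjusted p = 0.000386) and astrocytes (-2.09, edgeR adjusted p = 2.7e-05). In SST interneurons it was at 105, 81.4, 171, 76.4, 6.49 and 30.4 CPM in the library order above, and the SI libraries were the lowest. VIP interneurons, which carry the gene as a marker, held 16800 to 20700 CPM, and the part of RNA from them was not tested. The calls held in 12 of 16 and 9 of 15 alternative settings. Both were lost without the cohort term, at -2.81 in SST interneurons (edgeR adjusted p = 0.93) and -1.95 in astrocytes (adjusted p = 0.835). In SST interneurons the call was also lost with DESeq2 (-2.85) and after subtraction of the background profile (-4.11), and in astrocytes with doublets removed (-1.35, edgeR adjusted p = 0.719) and after thinning (-1.76, adjusted p = 0.531). Without the RunSI library the value in SST interneurons was -1.62 (edgeR adjusted p = 0.893) and that in astrocytes -1.47 (adjusted p = 0.702), without RunGH of cohort 2 the astrocyte value was -1.62 (adjusted p = 0.844), and with log-normalized clustering it was 0.13.

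Some genes followed the 9 across the 15 class means, which is a description over classes that share libraries. For Grik1, the most alike of 9029 genes were Kcnip1 (Pearson r = 0.955), Nxph1 (0.942) and Scmh1 (0.937), and for Grik2 Snrpn (0.917), Cntnap5c (0.858) and Rab3c (0.858). Grik3 had no gene above Rgs9 (0.76), followed by Pold3 (0.754) and Elavl4 (0.75). Grik4 was most like D030068K23Rik (0.901), Csmd2 (0.843) and Dnah2 (0.843), and Grik5 most like Rmnd5b (0.904), Neu2 (0.823) and Utp4 (0.82). Among AMPA genes, Gria1 was matched by Rbfox1 (0.896), Ttll11 (0.88) and B4galt5 (0.879), Gria2 by Ncan (0.837), BC005537 (0.759) and Wwc1 (0.756), Gria3 by Gm30382 (0.878) and Ociad2 (0.862), and Gria4 by Dpm1 (0.885), Usp13 (0.863) and Akap17b (0.855).

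Among the 9 genes themselves, the highest correlations of class means were between Gria1 and Gria3 (r = 0.65), Grik1 and Grik2 (0.62) and Grik4 and Grik5 (0.60), each over 15 classes. The lowest were between Gria2 and Gria4 and between Grik1 and Grik5, both at -0.67.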

How the data were processed

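The authors sequenced nuclei of the prelimbic cortex with the Chromium Single Cell 3′ V3 kit and deposited raw UMI counts per gene and barcode, made per the labels with Cell Ranger 6.0.0 on mm10, with introns counted by the methods of the study. The matrix headers name Cell Ranger 4, and the labels describe RNA extraction with a column kit, whereas the methods describe isolated nuclei. Here barcodes with 500 to 4000 genes and at most 1% mitochondrial UMIs were kept if they also passed a UMI minimum (621 to 3156 per library), since 5687 to 103391 barcodes per library passed the limits on genes and mitochondrial UMIs alone. The minimum was the 99th percentile of total UMIs among the N largest barcodes of the library, divided by 10, with N the number of nuclei that the study states for that library. The kept nuclei thus depend on the study's own numbers and are no independent count of nuclei, and no other UMI minimum was tried. Doublets marked by Scrublet (1.09% to 6.75% per library) were kept in the main counts and removed in an alternative. Nuclei were clustered per cohort on Pearson residuals (35 components, Leiden resolution 0.6, scanpy 1.11.5) without the 9 genes, the pathway genes and mitochondrial genes. A cluster was named when at least 3 fixed markers of a class were raised, a rule that was adjusted after clusters were seen. Pyramidal clusters followed a looser rule. They scored highest for that class, with at least 3 of its markers at a set share of the level in the highest cluster. They also needed at least 3 raised markers of a layer. Microglia-like and other glial clusters carried pyramidal markers as stated beside their values.

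Counts were summed per library and class, scaled to CPM, and tested across all genes with edgeR 4.0.16 (quasi-likelihood, TMM, filterByExpr, R 4.3.3), with Benjamini-Hochberg adjustment within a class and a threshold of 0.05. SE is the log2 fold change divided by the square root of F. Condition models held cohort, maternal environment and housing, and class comparisons held the library as a block. DESeq2 1.42.0 was an alternative, as were library totals for scaling, no count filter, at least 1000 genes, thinning to 1000 UMIs, subtraction of the background profile, log-normalized clustering and leaving out each library. The cohort number comes from the sample titles. Libraries of one cohort deviated together from the means of their groups, with correlations of 0.49 to 0.83 over classes and 0.78 in pyramidal neurons, so that cohort was a replicate block.

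The 9 genes, the 32 pathway genes and the other lists were chosen with earlier results of these data known. Named genes were the 9, each pathway gene called in a condition test, up to 3 per direction in each class comparison, and the 3 most alike by Pearson r of log2(CPM + 1) among genes with at least 100 UMIs in every library. Some genes that this rule names are not reported here. Promoters of Gria1, Gria3 and Grik1 and the protein sequences were not used here.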

Additional observations from a re-analysis of the deposited data

Results flagged for a closer look

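In 12 pairs of a gene and a class, the Run minus Sed difference in cohort 2 differed from that in cohort 1 by the interaction test of edgeR. The log2 differences, cohort 2 minus cohort 1, were 1.00 for Grik3, 0.58 for Grik5, 0.40 for Grik4 and -0.46 for Gria4 in pyramidal neurons as a whole. In Layer 2/3 Grik3 differed by 2.14, at levels below those of background droplets. In Mid-layer nuclei Grik1 differed by 1.43, also at background levels, and Grik5 by 0.58. Grik5 differed by 0.55 in Layer 5 Deptor nuclei and by 0.55 in Layer 6, where Grik4 differed by 0.55. In the Oprk1/Rxfp1 deep-layer nuclei Grik3 differed by 0.59 and Grik4 by 0.61. The cohort 1 side of each value is 1 pair of GH libraries, whereas the cohort 2 side takes in the GH and the SI pair. Cohort, the rank by which males were picked and behavioral testing before collection cannot be told apart. Within the cohort 1 pair, rank may also run along Run and Sed. Of 8 alternative settings, Grik3 in pyramidal neurons was called in 8 and the other 11 pairs in 1 to 6. None of these settings held the mixture of layers equal. Layer 6, rich in Grik3, made up 24.2% of pyramidal nuclei in SedGH and 10.4% in RunGH of cohort 1. In the layer classes without a call, the Grik3 value ran from 0.01 in Mid-layer nuclei to 0.36 in Layer 6. Gria4 was called in no layer class. The part of the layer mixture was not tested. No group held the 4 samples that a check for outlying samples needs.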

How the results depend on the processing

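Over alternative settings, 642 of 657 class levels moved by less than 1 SD, and 571 of 594 values of the 9 genes between classes kept their direction and side of the threshold, with 7 newly passing and 16 no longer passing. Of 282 values of the 9 genes in condition tests, 222 stayed on their side, 25 newly passed and 35 no longer passed, and of 225 ratios in pyramidal neurons 26 moved beyond their interval. No call of the 9 genes reversed. The maternal comparison (0 pairs called) gave 1 without a count filter, 1 with doublets removed and 0 to 6 when 1 library was left out, the 6 without either cohort 1 library. The interaction with cohort (12 pairs) gave 1 with DESeq2, 6 in nuclei with at least 1000 genes and 2 after thinning, and 10 to 15 otherwise. The sign held in 8 of 8 alternatives for each of the 12 pairs. The interaction with housing (0) gave 1 with log-normalized clustering, Grik3 in VIP interneurons. Oligodendrocyte precursors against oligodendrocytes (5 genes) gave 3 with DESeq2, 3 with doublets removed and 3 to 5 when 1 library was left out. Of 720 Run to Sed and SI to GH ratios, 315 had an interval without 0, and 162 of 675 after thinning. Leaving out 1 library gave 0 for social isolation each time, 9 for PV interneurons against pyramidal neurons, 7 to 8 for SST against PV interneurons, 7 to 8 for Layer 6 against Layer 2/3 and 6 to 8 for astrocytes against oligodendrocytes. Without the cohort as replicate block, the maternal and housing tests called 0 and 0 of the 144 pairs, and the block changed no call of the 9 genes, whereas both Adarb2 calls for social isolation were lost. Leaving out a library was not run for the interactions, which have 1 residual degree of freedom. Classes with under 20 nuclei in a library were not fitted, so glial classes lack some settings. The smallest library held 21 to 29 nuclei in oligodendrocyte precursors, oligodendrocytes and microglia, 44 in NPY/Lamp5 and 65 in VIP interneurons, which limits their values.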
